A study of Mus musculus with 24 samples.

Results

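The response of the mouse brain to human amnion epithelial cells was compared between mice infused with angiotensin II and mice infused with vehicle. For each gene, the difference between mice with and without the cells was taken under vehicle and under angiotensin II, and the first was subtracted from the second. This difference of differences was computed on log2(FPKM + 0.1) for the 27286 of 54532 genes in the table that were above 0 FPKM in at least 6 of the 24 mice. FPKM is the number of sequenced fragments of a gene per kilobase of its length, scaled to the size of the library. A positive value means that the level with cells, relative to the level without them, was higher under angiotensin II than under vehicle.

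All mice were male wild-type C57BL/6J animals, 8 to 12 weeks old, with 6 mice in each of 4 groups. For 2 weeks a subcutaneous minipump gave either angiotensin II, 0.7 mg/kg/day, or saline, which was the vehicle. Mice of the vehicle + amnion epithelial cells and angiotensin II + amnion epithelial cells groups were injected with the cells in the tail vein after pump implantation, and the other mice were injected with saline. RNA came from a brain hemisphere, so that fewer cells of a type and less RNA per cell cannot be told apart in any value below. The values of each group are given as the lowest, the median and the highest of its 6 mice.

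Angiotensin II is the peptide hormone of the renin-angiotensin system. It constricts vessels and raises blood pressure through the type 1 receptor, and its infusion is a common model of hypertension. In the brain it is known to act on neurons of the circumventricular organs and hypothalamus, and on vessels, where it is linked to inflammation and to a leaky blood-brain barrier. Amnion epithelial cells line the fetal side of the placental membranes, and are studied for the anti-inflammatory factors that they release.

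Libraries held 16536449 to 25308700 fragments per mouse. A set of 6 libraries stood apart, with a total of 338334 to 348597 FPKM per library against 277116 to 298301 in the other 18. The 6 were 2 libraries of the vehicle group, 1 of vehicle + amnion epithelial cells, 1 of angiotensin II and 2 of angiotensin II + amnion epithelial cells. These numbers lie along the difference of differences itself, so the leading results are also given with the library set as a term of the fit or in the 18 libraries alone. With the term, 14536 genes (53.3%) differed between the library sets at an adjusted p under 0.05. Markers of brain cells were present in all mice, with summed levels of 1222 to 1543 FPKM for 12 genes of neurons, 814 to 1018 FPKM for 12 genes of astrocytes and 1367 to 1993 FPKM for 13 genes of mature oligodendrocytes. Pituitary markers summed to 1237 FPKM in angiotensin II replicate 4 and to at most 26 FPKM in the other 3 groups.

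No gene passed the test of the difference of differences. At an adjusted p under 0.05, limma called 0 of 27286 genes (0%), and the lowest adjusted p was 0.0897, for Tnni3k. The second lowest was 0.93. At an unadjusted p under 0.05 there were 692 genes (2.54%), of which 321 had a positive difference of differences (1.18%) and 371 a negative one (1.36%). A share of 5% is what this threshold gives on average when no gene differs. Voom on the recovered fragments likewise called 0 genes at an adjusted p under 0.05, with 726 genes at an unadjusted p under 0.05. With the library set as a term, 931 genes (3.41%) had an unadjusted p under 0.05 and the lowest adjusted p was 0.22. Of the 692 genes, 537 (77.6%) were also among the 931, where they made up 57.7%. The count was 1244 without vehicle + amnion epithelial cells replicate 6, a library of the high set, 1146 in the 18 libraries outside that set and 1282 with array weights. Without angiotensin II replicate 4, the library with pituitary markers, it was 654.

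Most of the 692 genes were low. The mean was under 1 FPKM in 578 of them (83.5%), against 50% of all genes tested. Protein-coding genes made up 263 of the 692 (38%) and 17541 of all genes tested (64.3%). In 352 of the 692 genes, at least 1 group held no mouse with more than 3 fragments, a level that cannot be told from 0. The share of such genes among all genes tested was not counted. Among the 13649 genes with a mean of at least 1 FPKM, 114 (0.835%) had an unadjusted p under 0.05. For these better expressed genes the median standard error of the difference of differences was 0.193 on the log2 scale, and 0.0943 with the library set as a term. The median 95% confidence interval reached 0.4 to either side of the estimate, and 0.196 with the term.

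In nearly all of the 692 genes the difference with cells had opposite signs in the 2 infusions. In 308 genes the level was higher with cells under angiotensin II and lower with cells under vehicle, in 358 it was the other way round, and in 26 the signs were the same. A large difference of differences favours opposite signs, so these counts describe the genes and test nothing. The unadjusted p was also under 0.05 for the cells under vehicle alone in 229 genes, under angiotensin II alone in 211, in both infusions in 19 and in neither in 233. Across the 27286 genes, the differences with cells in the 2 infusions, which share no mice, had a Pearson correlation of -0.103. It was -0.00831 with the library set as a term, and genes are not independent replicates.

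**Figure D1:**
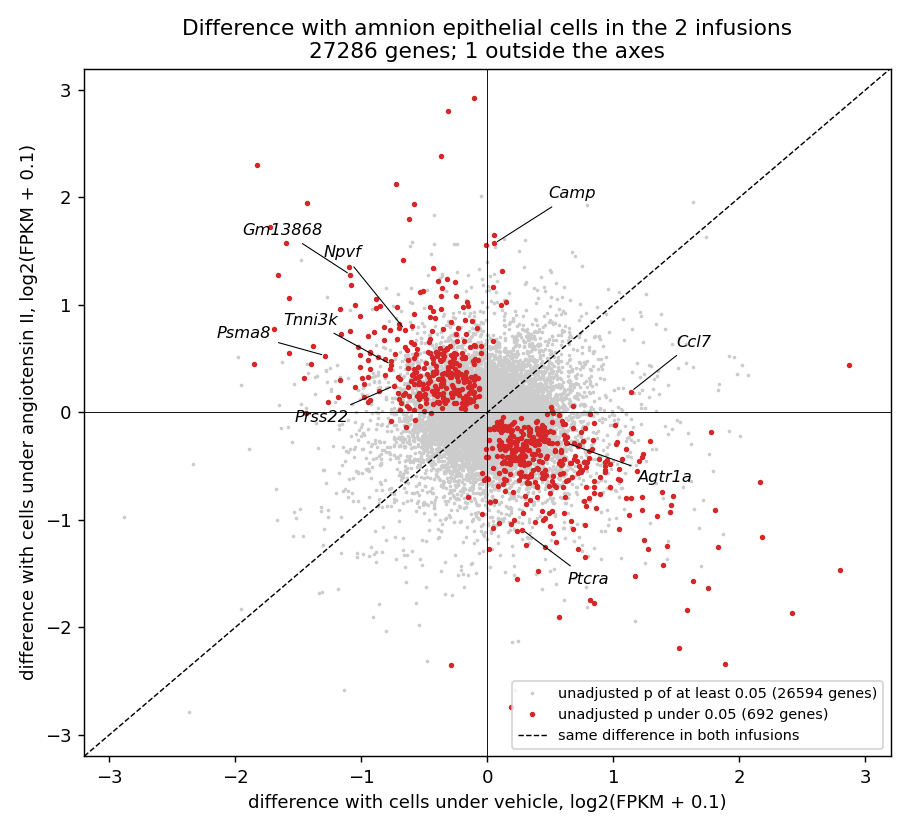
Difference with amnion epithelial cells under vehicle (x axis) and under angiotensin II (y axis), in log2(FPKM + 0.1), for each of 27286 genes. Red points are the 692 genes with an unadjusted p under 0.05 for the difference of differences; most lie to the upper left and the lower right, where the signs are opposite, and the dashed line marks equal differences.

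Tnni3k, which encodes a kinase of cardiac muscle cells that binds troponin I, led the genes. It lies on the minus strand of chromosome 3, chr3:154786291-155055407 in GRCm38. Its level was 0.0817, 0.114 and 0.179 FPKM with vehicle and 0.0146, 0.0248 and 0.0532 FPKM with vehicle + amnion epithelial cells. It was 0.0162, 0.0621 and 0.0909 FPKM with angiotensin II and 0.085, 0.11 and 0.156 FPKM with angiotensin II + amnion epithelial cells. All 6 vehicle mice lay above all 6 mice with cells, whereas under angiotensin II 4 of the 6 mice with cells lay above every mouse without them. Among the 27286 genes, groups did not overlap in 0.0623% for the cells under vehicle and in 0.099% for the cells under angiotensin II. Shuffled labels alone separate 6 against 6 mice with a probability of 0.00216, and both shares were below that. The difference of differences of Tnni3k was 1.21 ± 0.2 (SE) on the log2 scale, from 0.45 ± 0.14 under angiotensin II and -0.76 ± 0.14 under vehicle. An exact permutation test that shuffled the cell labels within each infusion gave a two-sided p of 7.03e-06, where the null is that the cells have no effect in either infusion. The gene was chosen for its low p in the same mice, and neither this nor any other permutation p given here is corrected for that choice among 27286 genes. With the library set as a term the value was 1.17 and the adjusted p was 0.22, and in the 18 libraries the value was 1.31. Over the alternatives the adjusted p ran from 0.0154, with array weights, to 0.418, with a pseudocount of 0.01, and the value itself from 0.2, with a pseudocount of 1, to 2.84, with voom. The values rest on very few fragments, 1 to 3 in each of the vehicle + amnion epithelial cells libraries and 1 to 15 in the others.

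The other leading genes were also low in the brain. Psma8, a proteasome subunit of the testis, was 0.159, 0.245 and 0.437 FPKM with vehicle and 0.0294, 0.0457 and 0.0649 FPKM with vehicle + amnion epithelial cells, and these groups did not overlap. With angiotensin II it was 0, 0.149 and 0.191 FPKM, and with angiotensin II + amnion epithelial cells 0.0673, 0.227 and 0.491 FPKM, so that the order of the medians was reversed under angiotensin II. Its difference of differences was 1.82 ± 0.39, but each vehicle + amnion epithelial cells library held only 1 to 2 fragments, which cannot be told from 0, and the value ran from 0.39 to 3.36 over the alternatives. Prss22, a serine protease of epithelia, had the same pattern at a higher level. It was 0.704, 0.795 and 1.01 FPKM with vehicle, 0.324, 0.424 and 0.618 FPKM with vehicle + amnion epithelial cells, 0.408, 0.604 and 0.759 FPKM with angiotensin II, and 0.513, 0.683 and 1.04 FPKM with angiotensin II + amnion epithelial cells. Its difference of differences was 0.99 ± 0.25, and ran from 0.44 to 1.14. For both genes the difference with cells under vehicle had the smallest two-sided p that an exact permutation of 6 against 6 mice can give, 0.00216, and the p under angiotensin II was 0.193. In the 18 libraries the differences of differences were 1.8 and 0.94.

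Mup5, one of the major urinary proteins of the liver, had a difference of differences of 1.89 ± 0.43, with 5 of 6 vehicle + amnion epithelial cells mice below every vehicle mouse and 5 of 6 angiotensin II + amnion epithelial cells mice above every angiotensin II mouse. The major urinary protein genes are near-identical copies, so how their fragments were shared out is uncertain. The pseudogene Tubb2a-ps2 had a value of 1.44 ± 0.36 and the unannotated transcript Gm43266 a value of -0.99 ± 0.24. Mup5 and Tubb2a-ps2 each held 0 to 2 fragments in the angiotensin II libraries and 0 to 3 in those of vehicle + amnion epithelial cells. These levels cannot be told from 0. A further pair of the 8 genes with the lowest p was lower still, with means of 0.0417 and 0.0335 FPKM over the 24 mice. The pseudogene Gm12403, which lies within Ube2r2 on the same strand, was listed at 0 in all angiotensin II mice and had at most 4 fragments in any mouse. The antisense transcript 4930473H19Rik was listed at 0 in all vehicle and all angiotensin II + amnion epithelial cells mice and had at most 5 fragments in any mouse. The fitted values of this pair depend on the pseudocount and are not given. Those of the 3 genes before them depend on it as well, and ran over the alternatives from 0.38 to 4.02 for Mup5, from 0.26 to 3.59 for Tubb2a-ps2 and from -1.46 to -0.25 for Gm43266.

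Among genes with a mean of at least 1 FPKM, the lowest p belonged to Dlx1as, the antisense transcript of the Dlx1 homeobox gene of interneurons. Dlx1as was 0.536, 0.88 and 1.07 FPKM with vehicle, 0.767, 1.2 and 1.5 FPKM with vehicle + amnion epithelial cells, 1.1, 1.48 and 1.77 FPKM with angiotensin II, and 0.898, 1.05 and 1.33 FPKM with angiotensin II + amnion epithelial cells. Without cells, all vehicle mice lay below all angiotensin II mice, with a highest vehicle value of 1.07 and a lowest angiotensin II value of 1.1 FPKM. The share of all genes without overlap between these 2 groups was not counted. The 2 groups with cells overlapped widely in Dlx1as. The values gave a difference of differences of -0.81 ± 0.23, with an exact permutation p of 0.0015. It was -0.67 with the library set as a term and -0.73 in the 18 libraries. Whether strand was used in counting is not stated, so that reads of Dlx1 and Dlx1as cannot be told apart where they overlap. Gm13868, a pseudogene within Trim44 on the same strand, had the largest difference of differences of this group, 2.37 ± 0.7, and all 6 angiotensin II + amnion epithelial cells mice lay above all 6 angiotensin II mice.

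Slco4a1, a carrier of thyroid hormones and prostaglandins, was 1.18, 1.38 and 1.64 FPKM with vehicle and 1.59, 1.76 and 1.96 FPKM with vehicle + amnion epithelial cells. It was 1.15, 1.67 and 2.12 FPKM with angiotensin II and 1.4, 1.51 and 1.54 FPKM with angiotensin II + amnion epithelial cells. Under vehicle 5 of 6 mice with cells lay above every mouse without them, and under angiotensin II the mice with cells lay within the range of those without. Its difference of differences was -0.49 ± 0.16. Thumpd2, an RNA methyltransferase, had a value of -0.48 ± 0.16. With cells it was lower under angiotensin II by a difference of -0.31 ± 0.11, where 4 of 6 mice lay below every mouse without cells, and under vehicle the difference was 0.17 ± 0.11.

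Galm, which interconverts the forms of galactose, was 0.968, 1.18 and 1.52 FPKM with angiotensin II and 1.28, 1.58 and 1.93 FPKM with angiotensin II + amnion epithelial cells. With vehicle it was 1.2, 1.42 and 1.49 FPKM and with vehicle + amnion epithelial cells 0.952, 1.25 and 1.54 FPKM. The groups overlapped in both infusions, and the difference of differences was 0.54 ± 0.18. Dnph1, a hydrolase of nucleotides, had a value of 0.56 ± 0.18, Snupn, which imports spliceosome particles into the nucleus, 0.3 ± 0.1, and the histone deacetylase Hdac1 0.28 ± 0.1. The noncoding transcripts 9030407P20Rik and Gm39469 had values of 0.63 ± 0.22 and 0.88 ± 0.29, and the pseudogenes Gm6030 and Gm7332 values of -0.86 ± 0.27 and -1.25 ± 0.43. All 12 genes kept their sign with the library set as a term and in the 18 libraries. The unadjusted p stayed under 0.05 in each of 34 alternatives for 11 of them, and for Gm7332 it was 0.0541 in the 18 libraries. The 12 genes were chosen for a low p in these same mice, which the alternatives reuse. Their stability is therefore no independent support, and each had an adjusted p of 0.93 in the main fit.

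**Figure D2:**
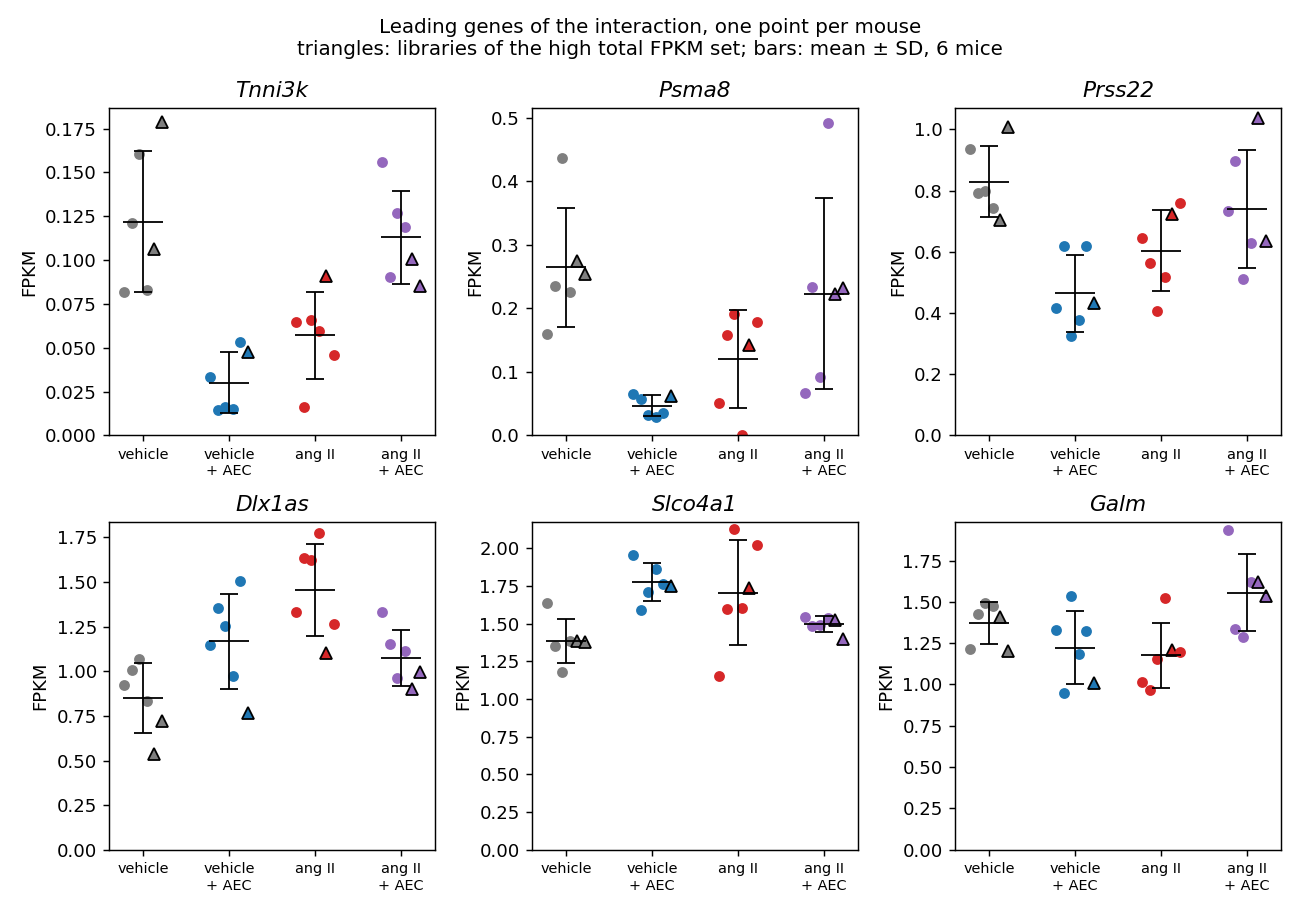
FPKM (y axis) of 6 leading genes in each mouse of the 4 groups (x axis); ang II is angiotensin II and AEC is amnion epithelial cells, horizontal lines with bars are the mean ± SD of 6 mice, and triangles are libraries of the high total FPKM set. Tnni3k, Psma8 and Prss22 are lower with cells under vehicle, with no overlap, and Dlx1as is lowest with vehicle and highest with angiotensin II.

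Functions were described with 45 lists of genes and cell markers, and with 4 lists taken from the study. Of 890 members tested, 20 (2.25%) had an unadjusted p under 0.05, against 2.54% of all genes, so that the share was near the background. Of the 20, 9 had a positive and 11 a negative difference of differences. No member was called at an adjusted p under 0.05, and 32 of the 45 lists held no member at an unadjusted p under 0.05. The count was 11 without vehicle replicate 5, 44 without vehicle + amnion epithelial cells replicate 6 and 31 without angiotensin II replicate 5, all libraries of the high set, and it was 31 with the library set as a term.

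In the renin-angiotensin system, 1 of 14 members had an unadjusted p under 0.05, and the median difference of differences was 0.07 against -0.03 for all genes tested. The member was Agtr1a, the main type 1 receptor of angiotensin II, at chr13:30336441-30382867 on the plus strand. Its level was 0.0536, 0.0896 and 0.196 FPKM with vehicle and 0.154, 0.207 and 0.294 FPKM with vehicle + amnion epithelial cells. It was 0.144, 0.202 and 0.301 FPKM with angiotensin II and 0.0749, 0.159 and 0.286 FPKM with angiotensin II + amnion epithelial cells. The vehicle group had the lowest median and the other 3 groups overlapped widely. The difference with cells was 0.62 ± 0.19 under vehicle, with an exact permutation p of 0.00866, and -0.28 ± 0.19 under angiotensin II, with an exact permutation p of 0.191. Together these gave -0.9 ± 0.27, with an exact permutation p of 0.00308, and -0.74 in the 18 libraries. The estimate rests on 3 to 15 fragments per library. The next lowest p in the list belonged to Mas1, a receptor for a shorter angiotensin peptide, and the peptidase Mme, with values of 0.14 ± 0.11 and -0.27 ± 0.22.

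In complement, the cascade of plasma proteins that marks and lyses cells, 2 of 19 members had an unadjusted p under 0.05, both negative, and the median was 0.04. C5ar1, the receptor of the C5a fragment, was 0.227, 0.309 and 0.481 FPKM with vehicle and 0.374, 0.469 and 0.62 FPKM with vehicle + amnion epithelial cells. It was 0.378, 0.52 and 0.642 FPKM with angiotensin II and 0.284, 0.366 and 0.522 FPKM with angiotensin II + amnion epithelial cells. The vehicle mice were thus mostly lowest, the angiotensin II mice mostly highest, and the groups overlapped. The difference with cells was 0.4 ± 0.17 under vehicle and -0.35 ± 0.17 under angiotensin II, and the difference of differences was -0.75 ± 0.24, with an exact permutation p of 0.00256. It was -0.75 in the 18 libraries as well. Complement factor B, Cfb, a protease subunit of the alternative pathway, had a value of -0.66 ± 0.3 on 0 to 14 fragments per library. The unadjusted p of Cfb was 0.0633 with the library set as a term and 0.15 in the 18 libraries.

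Among 21 cytokines, inflammasome and toll-like receptor genes, 1 had a positive and 1 a negative value at an unadjusted p under 0.05, and the median was 0.03. Tlr2, the receptor of bacterial lipoproteins, had the reverse pattern of C5ar1. It was 0.386, 0.498 and 0.736 FPKM with vehicle, 0.155, 0.338 and 0.456 FPKM with vehicle + amnion epithelial cells, 0.179, 0.475 and 0.533 FPKM with angiotensin II, and 0.439, 0.59 and 0.698 FPKM with angiotensin II + amnion epithelial cells. Under vehicle 4 of 6 mice with cells lay below every mouse without them, and under angiotensin II 4 of 6 lay above. Its difference of differences was 0.95 ± 0.3, with an exact permutation p of 0.00167, and 1.04 with the library set as a term. The cytokine Il6 had a value of -0.35 ± 0.17 and no library with more than 3 fragments, so it cannot be told from 0.

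Among 16 chemokines and chemokine receptors, 1 had an unadjusted p under 0.05. Ccl7, which attracts monocytes, was 0, 0.111 and 0.198 FPKM with vehicle and 0.195, 0.338 and 0.536 FPKM with vehicle + amnion epithelial cells. It was 0, 0.101 and 0.266 FPKM with angiotensin II and 0.0712, 0.132 and 0.195 FPKM with angiotensin II + amnion epithelial cells. The mice given cells under vehicle had the highest median, and 5 of 6 lay above every vehicle mouse. The difference with cells was 1.14 ± 0.29 under vehicle, with an exact permutation p of 0.00433, and 0.19 ± 0.29 under angiotensin II, with an exact permutation p of 0.561. For Ccl7 the difference of differences was -0.95 ± 0.41 with an exact permutation p of 0.071, on 0 to 8 fragments per library, and its unadjusted p was under 0.05 in 26 of 33 alternatives. No member passed that threshold among 12 leukocyte adhesion genes, 20 interferon-stimulated genes or 14 genes of antigen presentation. In antigen presentation, H2-Ab1, a chain of MHC class II, had a value of 0.84 with an unadjusted p of 0.0568. With the library set as a term it was 0.5 with an unadjusted p of 0.0209, and in the 18 libraries 0.42 with 0.1155. The unadjusted p of H2-Ab1 was under 0.05 in 9 of 34 alternatives.

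**Figure D3:**
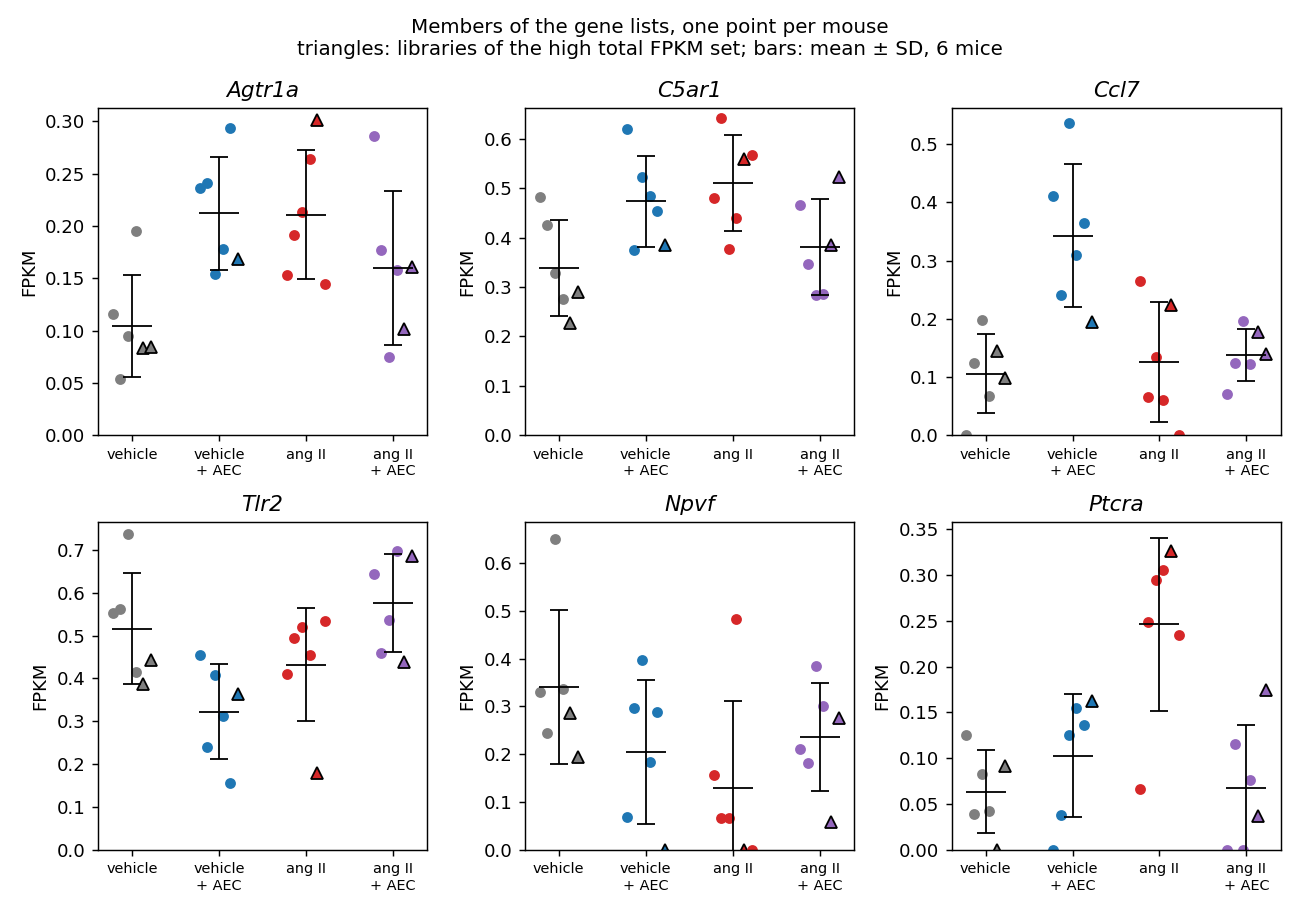
FPKM (y axis) of 6 members of the gene lists in each mouse of the 4 groups (x axis), drawn as in the plot of the leading genes: lines with bars are the mean ± SD of 6 mice, and triangles are libraries of the high total FPKM set. Agtr1a and C5ar1 are higher with cells under vehicle and lower with cells under angiotensin II, Tlr2 the other way round, and Ccl7 stands high in the vehicle + AEC mice.

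Col1a1, the main chain of type I collagen, was the member at an unadjusted p under 0.05 of 13 collagen chains. It was 2.17, 2.45 and 4.42 FPKM with vehicle, 1.56, 2.14 and 3.02 FPKM with vehicle + amnion epithelial cells, 2.04, 2.26 and 4.21 FPKM with angiotensin II, and 2.32, 2.58 and 6.12 FPKM with angiotensin II + amnion epithelial cells. The highest mouse of each group was a library of the high set. Over all 24 mice the difference of differences was 0.78 ± 0.34, but 0.48 ± 0.13 with the library set as a term, with an unadjusted p of 0.00163, and 0.37 in the 18 libraries. Col3a1, of type III collagen, had a value of 0.38 and Col6a3, of type VI collagen, a value of -0.5, with unadjusted p of 0.155 and 0.0886. No member passed the threshold among 15 genes of TGF-beta signalling, 13 metalloproteinases and their inhibitors, 13 genes of VEGF and angiopoietin signalling, 19 NADPH oxidase and antioxidant genes, or 11 genes of nitric oxide and endothelin.

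In the lists of neuronal and potassium channel genes, the members at an unadjusted p under 0.05 were Npvf, Slc6a3, Kcnj15 and Dlx1as. Npvf, a hypothalamic RFamide peptide that restrains gonadotropin release, was 0.193, 0.309 and 0.651 FPKM with vehicle and 0, 0.236 and 0.396 FPKM with vehicle + amnion epithelial cells. It was 0, 0.066 and 0.483 FPKM with angiotensin II and 0.0582, 0.243 and 0.385 FPKM with angiotensin II + amnion epithelial cells, with wide overlap. Its value was 1.42 ± 0.59 on 0 to 10 fragments per library. Slc6a3, the dopamine transporter, was 2.43, 3.34 and 4.2 FPKM with vehicle, 3.1, 3.58 and 4.16 FPKM with vehicle + amnion epithelial cells, 3.24, 4.04 and 5.36 FPKM with angiotensin II, and 2.4, 3.27 and 3.95 FPKM with angiotensin II + amnion epithelial cells. It overlapped between all groups, and the difference of differences was -0.49 ± 0.22, or -0.26 in the 18 libraries with an unadjusted p of 0.194. The potassium channel Kcnj15, with a mean of 0.0106 FPKM, had a value of 0.3 ± 0.14. It held 0 to 3 fragments in the angiotensin II libraries and 0 to 2 in those of vehicle + amnion epithelial cells, which cannot be told from 0. Kcnj15 was the only one of 89 potassium channel genes at an unadjusted p under 0.05. No member passed it among 45 glutamate and GABA receptor subunits, 15 synaptic genes, 12 cortical and limbic neuropeptides, 15 clock genes or 17 immediate early genes.

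Of 15 genes of the cell cycle and neurogenesis, Mki67, a nuclear protein of dividing cells, was the member at an unadjusted p under 0.05. It was 0.0405, 0.0676 and 0.119 FPKM with vehicle and 0.122, 0.135 and 0.183 FPKM with vehicle + amnion epithelial cells, and these groups did not overlap. With angiotensin II it was 0.0949, 0.123 and 0.152 FPKM and with angiotensin II + amnion epithelial cells 0.0723, 0.118 and 0.214 FPKM, with the mice without cells inside the range of those with them. The difference with cells was 0.51 ± 0.15 under vehicle and 0.01 ± 0.15 under angiotensin II. The resulting value was -0.5 ± 0.21, and -0.32 in the 18 libraries with an unadjusted p of 0.183.

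Of the 20 members, 5 were markers of blood cells, all positive. Over all genes tested, 1.18% were positive at an unadjusted p under 0.05. That share compares with the count of each list of markers, and not with the 5 of 20. Neutrophil markers held 1 of 13, B cell markers 1 of 10 and T cell markers 0 of 15. Regardless of p, erythroid markers were 9 positive and 2 negative, and neutrophil markers 9 and 4. T cell markers were 9 and 6, and B cell markers 5 and 5. Of 11 erythroid markers tested, 3 had an unadjusted p under 0.05, and the median over the list was 0.48, 0.17 with the library set as a term and 0.07 in the 18 libraries. Slc4a1, the anion exchanger of red cells, was 0.0509, 0.109 and 0.19 FPKM with vehicle, 0.0329, 0.0957 and 0.179 FPKM with vehicle + amnion epithelial cells, 0.0218, 0.116 and 0.287 FPKM with angiotensin II, and 0.131, 0.258 and 0.621 FPKM with angiotensin II + amnion epithelial cells. The last group had the highest median, with 2 of 6 mice above every angiotensin II mouse. Slc4a1 had a value of 0.86 ± 0.38, and 0.79 in the 18 libraries with an unadjusted p of 0.125. Klf1, the transcription factor of red cell precursors, had a value of 0.98 ± 0.43. The summed level of the 12 erythroid markers in the table was 33.2, 78 and 204.7 FPKM with vehicle, 37.9, 71.3 and 123 FPKM with vehicle + amnion epithelial cells, 37, 83.1 and 190 FPKM with angiotensin II, and 41.6, 160 and 170 FPKM with angiotensin II + amnion epithelial cells. All 4 groups overlapped in this sum.

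Camp, the cathelicidin peptide of neutrophil granules, was 0.131, 0.387 and 1.15 FPKM with vehicle, 0.212, 0.483 and 0.694 FPKM with vehicle + amnion epithelial cells, 0.0703, 0.458 and 1.42 FPKM with angiotensin II, and 0.688, 1.34 and 3.03 FPKM with angiotensin II + amnion epithelial cells. That last group had the highest median and 3 of its mice lay above every angiotensin II mouse. Camp had a difference of differences of 1.52 ± 0.65, with an exact permutation p of 0.0555, and 1.11 in the 18 libraries with an unadjusted p of 0.163. The summed level of the 13 neutrophil markers was 7.3, 9.44 and 16.1 FPKM with vehicle, 9.02, 12.2 and 18.4 FPKM with vehicle + amnion epithelial cells, 8.06, 19 and 28.4 FPKM with angiotensin II, and 11.9, 23.7 and 53.3 FPKM with angiotensin II + amnion epithelial cells. The median over the list was 0.35, 0.25 with the library set as a term and 0.11 in the 18 libraries. None of the neutrophil or erythroid markers was at 0 in every mouse. Igkc, the constant region of the kappa light chain, had a value of 1.33 ± 0.6 and was the only one of 10 B cell markers at an unadjusted p under 0.05. The 10 markers summed to between 10.9 and 20 FPKM in all 24 mice. With the library set as a term the unadjusted p of Igkc was 0.0619, and that of Klf1 was 0.0573. The part of blood in the vessels of the hemispheres in these values was not tested.

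The study chose 4 lists of inflammation genes on these same mice, 2 from angiotensin II against vehicle and 2 from the cells under angiotensin II. These comparisons share mice with the difference of differences, so the lists are not independent evidence of a direction. Of 12 genes that it gave as higher with angiotensin II, 3 had a negative difference of differences at an unadjusted p under 0.05 and none a positive one. Of 11 tested genes given as lower with cells under angiotensin II, the count was 4 negative, among them Cfb and Ptcra of the list before, and 0 positive. Of 8 genes given as higher with cells, 1 was positive, Camp, and of 9 given as lower with angiotensin II, none passed the threshold. Over all genes tested, 1.36% were negative and 1.18% positive at this threshold. Since the lists were chosen on these mice, a higher share in them tests nothing. With the library set as a term, the negative counts of 3 and 4 both became 2, and the positive count stayed at 1. Ptcra, the pre-T cell receptor chain of developing thymocytes, was 0, 0.0624 and 0.126 FPKM with vehicle, 0, 0.131 and 0.162 FPKM with vehicle + amnion epithelial cells, 0.0664, 0.272 and 0.327 FPKM with angiotensin II, and 0, 0.0566 and 0.174 FPKM with angiotensin II + amnion epithelial cells. Without cells under angiotensin II 5 of 6 mice lay above every mouse of the other 3 groups. The difference with cells was -1.09 ± 0.3 under angiotensin II and 0.28 ± 0.3 under vehicle, and the difference of differences was -1.37 ± 0.42, on 0 to 8 fragments per library. Ulbp1, a stress ligand of natural killer cells, had a value of -0.34 ± 0.17 with an unadjusted p of 0.0534. The antimicrobial protein Bpifb1 had a value of -0.86 ± 0.39, with an unadjusted p under 0.05 in 16 of 33 alternatives. Angiotensin II replicate 6 held 36 fragments of Bpifb1, against 2 to 8 in the other mice of that group. Prokr1, a receptor of the prokineticins with a mean of 0.0324 FPKM, had a value of -0.49 ± 0.23 and an unadjusted p of 0.0568 with the library set as a term, and it is named after its values were seen.

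The medians of the lists of large gene families moved with the library set. The median difference of differences was 0.21 over 74 nuclear subunits of the respiratory chain, of which 70 had a positive value, and 0.2 over 81 cytosolic ribosomal proteins, of which 78 had a positive value. None of these genes had an unadjusted p under 0.05. With the library set as a term the medians were -0.01 and -0.04, and in the 18 libraries -0.02 and -0.05. The 6 libraries of the high set were above the others by a median of 0.69 and 0.72 on the log2 scale for these lists. The 15 clock genes had a median of -0.21, with 14 negative, and the 45 glutamate and GABA receptor subunits a median of -0.14, with 35 negative. These became -0.06 and 0.01 with the term. Pericyte and smooth muscle markers had a median of 0.23, and -0.04 with the term. The 7 pituitary markers tested had a median of -0.51, the farthest from 0 of the marker and pathway lists, with -0.49 with the term, -0.80 in the 18 libraries and -0.05 without angiotensin II replicate 4. Across the 13649 genes with a mean of at least 1 FPKM, the difference of differences had a Pearson correlation of 0.728 with the difference between library sets, as a description over genes that share the same libraries.

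**Figure D4:**
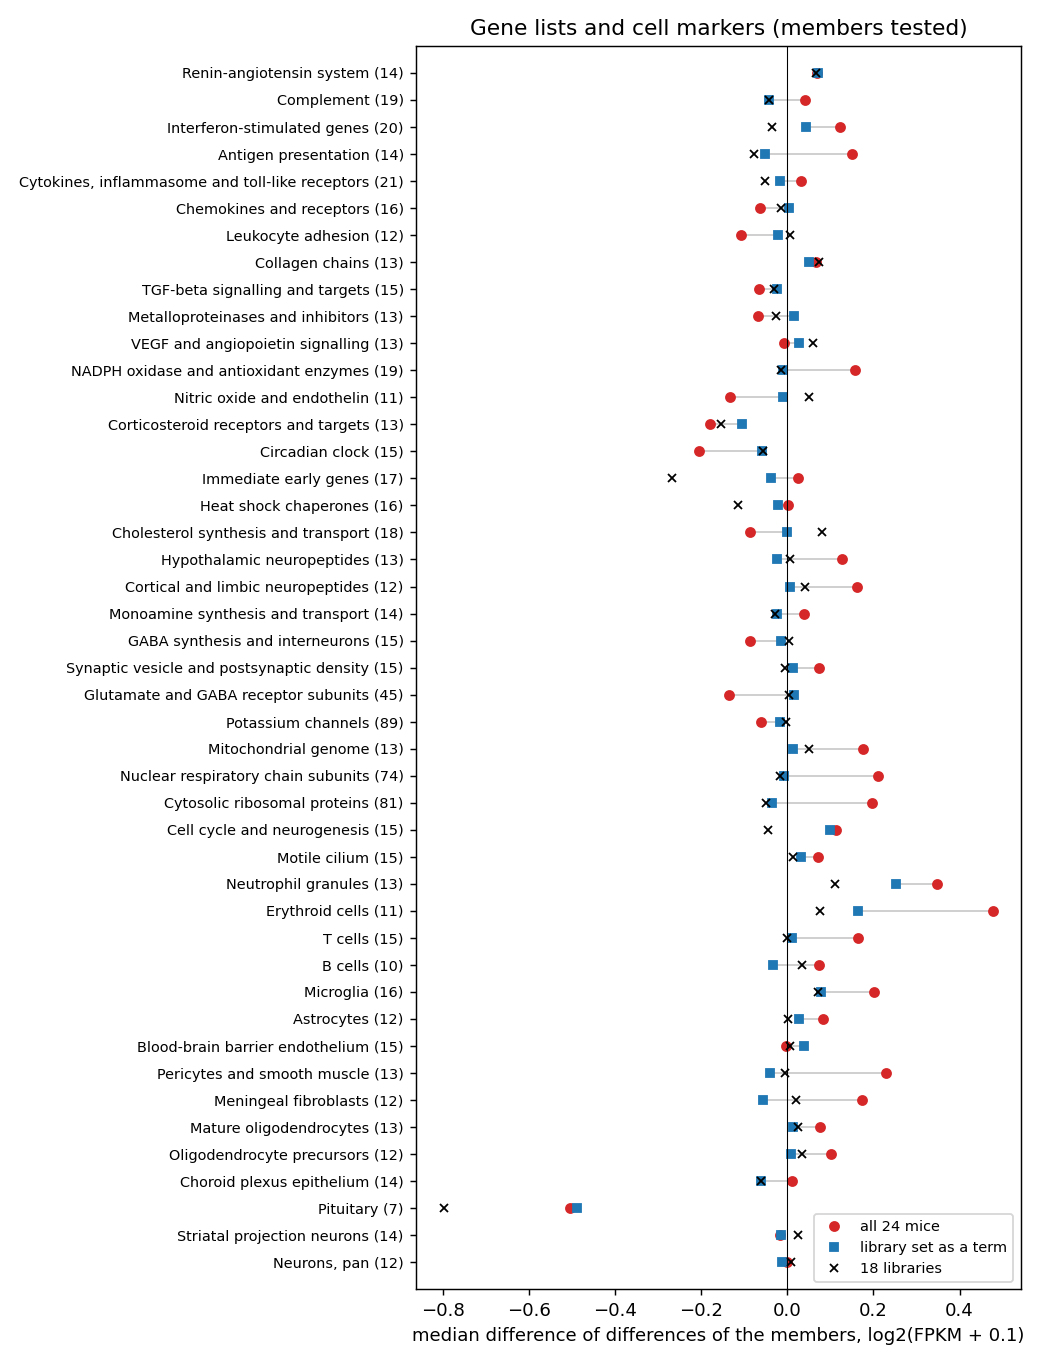
Median difference of differences (x axis, log2 scale) of the members of 45 gene lists and cell marker lists (y axis, with the number of members tested). Red circles are the fit of all 24 mice, blue squares the fit with the library set as a term and crosses the 18 libraries alone; the circles of the respiratory chain, at 0.21, and of the ribosomal proteins, at 0.2, fall to about 0.

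With the library set as a term, another group of better expressed genes had the lowest p, although none had an adjusted p under 0.05. Dlx1as was in both groups. Cd59b, which protects cells from lysis by complement, was 0.651, 0.944 and 1.21 FPKM with vehicle and 0.99, 1.17 and 1.52 FPKM with vehicle + amnion epithelial cells. It was 0.943, 1.22 and 1.66 FPKM with angiotensin II and 0.658, 1.01 and 1.68 FPKM with angiotensin II + amnion epithelial cells, so that the groups overlapped. Its difference of differences was -0.59 ± 0.27 without the term, -0.78 ± 0.18 with it and -0.87 in the 18 libraries. Cidea, a lipid droplet protein, had a value of -0.34 ± 0.27 without the term and -0.56 ± 0.14 with it, and -0.66 in the 18 libraries. In the 4 vehicle libraries outside the high set Cidea was 2.11 to 2.48 FPKM, and in the 5 of vehicle + amnion epithelial cells 2.69 to 3.82 FPKM. In the 5 such angiotensin II libraries it was 3.12 to 3.62 FPKM and in the 4 of angiotensin II + amnion epithelial cells 2.59 to 3.45 FPKM. Among these 18 libraries the ranges with and without cells did not overlap under vehicle, and overlapped under angiotensin II. The share of all genes without overlap was not counted in these 18 libraries. The shares given above for the full groups do not apply to groups of 4 and 5 libraries. Cidea was also chosen for its low p with the term in the same mice.

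Rtl8a, a retrotransposon-derived gene of the X chromosome, shows how far the set moved a value. It was 36.6 to 45.1 FPKM in the 18 libraries and 60.6 to 72.4 FPKM in the 6 of the high set. Its difference of differences was 0.05 ± 0.27 without the term and -0.19 ± 0.06 with it. Spef1 and Spag8, proteins of sperm tails and motile cilia, had values with the term of -0.32 ± 0.1 and -0.59 ± 0.17, while the 15 genes of the motile cilium list had a median of 0.03 with it. Spef1 overlaps Cenpb and Cdc25b, so its reads are uncertain. Chtop, which exports mRNA from the nucleus, had a value of 0.1 ± 0.03 with the term, the pseudogene Gm14042 0.92 ± 0.28 and the transcript Gm9954 0.5 ± 0.13.

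With the term, 31 of 890 members of the lists (3.48%) had an unadjusted p under 0.05, a share near the 3.41% of all genes, so the values that follow are a description. Txnip, which inhibits thioredoxin, had a value of -0.38 with the term and Gclc, of glutathione synthesis, a value of -0.13. Pdk4, a kinase of pyruvate dehydrogenase induced by glucocorticoids, had -0.35, and Pdgfra, the receptor of oligodendrocyte precursors, -0.27. Of 12 markers of these precursors, 1 had an unadjusted p under 0.05 with the term, and the median of the list was 0.01. Without the term 8 of the 12 had a positive value and 4 a negative one. The 16 microglial markers had a median of 0.08 with the term, and without it 10 were positive and 6 negative. Of the 16, 2 had an unadjusted p under 0.05 with the term. The adaptor Tyrobp had 0.31 with the term and the lysosomal Cd68 0.3. Both had an unadjusted p above 0.05 without the term, at 0.0758 and 0.0861. In the 18 libraries their unadjusted p were 0.108 and 0.0659. Kdr, the VEGF receptor of endothelium, had 0.34 with the term and an unadjusted p of 0.154 in the 18 libraries, and the ribosomal gene Rpl30 had 0.33 and an unadjusted p of 0.316 there.

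**Figure D5:**
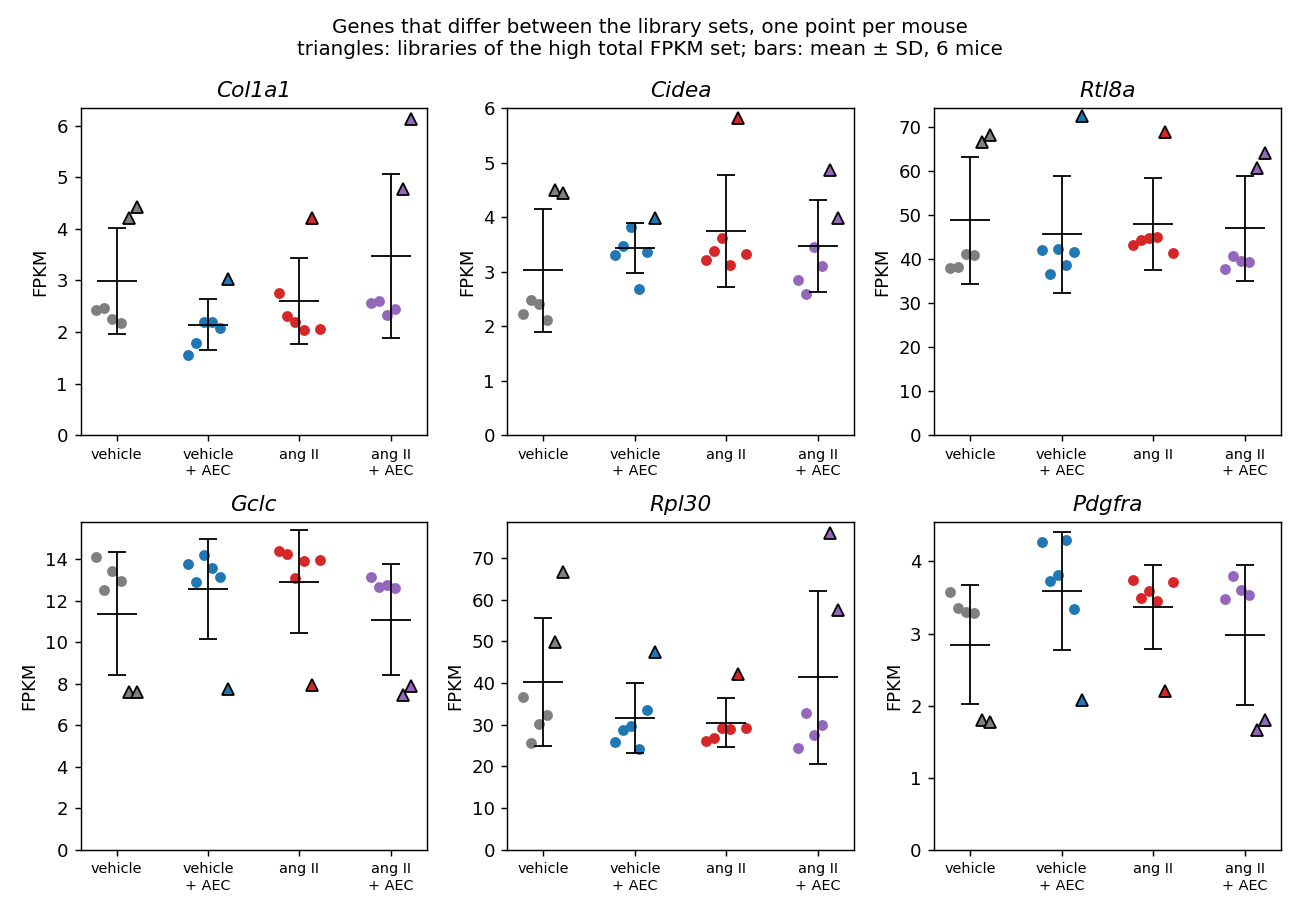
FPKM (y axis) of 6 genes in each mouse of the 4 groups (x axis), with lines and bars for the mean ± SD of 6 mice. Triangles, the 6 libraries of the high total FPKM set, lie apart from the circles of the same group in Rtl8a, Gclc and Pdgfra.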

How the data were processed

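Brain RNA of 24 mice was sequenced, and the table that the authors deposited holds FPKM, already scaled by gene length and library size, for every mouse. Per the study's methods, polyadenylated RNA was sequenced and mapped to the Ensembl mouse genome. The build is GRCm38, whereas the read aligner, the counter and any use of strand are not given in the sources used here. The submitters' notes name DESeq 1.10.1, which needs counts and was not used here. Fragments were recovered from the smallest step of FPKM times gene length, and 100% of values were whole. The floor of 3 fragments covers counting error only. Standard errors and confidence intervals came from the limma fit, and include the variation between mice of a group.

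Groups came from the sample labels. The difference of differences, and the 2 differences with cells, were tested with limma 3.58.1 (R 4.3.3), whose prior variance followed the mean level, in one fit of the 4 groups to log2(FPKM + 0.1). P-values were adjusted by Benjamini and Hochberg's method over 27286 genes. This scale understates the differences of low genes. P-values of single genes came from limma or from two-sided exact permutations of the cell labels within each infusion (924 relabellings in each). Alternatives were a pseudocount of 1 or 0.01, no filter, a mean of at least 1 FPKM, the replicate number as a block, median ratio scaling, voom on recovered fragments, array weights, the library set as a term, the 18 libraries outside the set, and each mouse left out. The fit was tested on simulated data. Python 3.11.15, pandas 2.3.3, numpy 2.4.6, scipy 1.17.1 and matplotlib 3.10.9 were used.

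Genes named were the 12 lowest p with a mean of at least 1 FPKM, the 8 lowest of all, the 10 lowest with the library set as a term at such a mean, up to 3 of each list, and Cfb, Ptcra and Ulbp1. The comparison, the lists and the library set were chosen with earlier results of these data known. The table holds mouse genes, and reads of the human cells were not analysed here. A gene that the rule selects is not reported here.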

Additional observations from a re-analysis of the deposited data

Results flagged for a closer look

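For 57 named genes, the 6 mice of each group were searched for a mouse set apart from the others by Dixon's criterion, and 19 of 228 groups held one. Chance alone sets apart about 1 in 20 groups. Of the 19 values, 15 belonged to vehicle + amnion epithelial cells replicate 6 or angiotensin II replicate 5, each the only library of the high total FPKM set in its group.

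In vehicle + amnion epithelial cells replicate 6, Gm9954 was at 0.606 FPKM against 1.21 to 1.65 FPKM in the other 5 mice, and Rtl8a at 72.4 against 36.6 to 42.2 FPKM. In that mouse Spef1 was at 5.52 against 3.75 to 4.31 FPKM, and Gclc, of glutathione synthesis, at 7.76 against 12.9 to 14.2 FPKM. The lysosomal Cd68 was at 9.66 against 4.36 to 5.67 FPKM, and Pdgfra at 2.08 against 3.34 to 4.3 FPKM.

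In angiotensin II replicate 5, Gm9954 was at 0.507 against 1.16 to 1.51 FPKM, Rtl8a at 68.9 against 41.4 to 45.1 FPKM and Cidea at 5.81 against 3.12 to 3.62 FPKM. Chtop was at 39.4 against 42.6 to 43.8 FPKM, and Tlr2 at 0.179 against 0.41 to 0.533 FPKM. Gclc was at 7.96 against 13.1 to 14.4 FPKM, the ribosomal gene Rpl30 at 42.2 against 26.1 to 29.3 FPKM, Cd68 at 7.96 against 5.3 to 6.05 FPKM and Pdgfra at 2.2 against 3.46 to 3.75 FPKM.

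The other values were in genes with few fragments. Gm12403 was at 0.0501 FPKM in vehicle + amnion epithelial cells replicate 2 and Kcnj15 at 0.0157 FPKM in replicate 4, both against 0 in the rest of that group. Il6 was at 0.0658 against 0.0175 to 0.0247 FPKM in angiotensin II replicate 2. Ptcra was at 0.0664 FPKM in angiotensin II replicate 1 against 0.235 to 0.327 FPKM in the other mice of that group.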

How the results depend on the processing

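Tests of the difference of differences were repeated under 10 other settings and with each of 24 mice left out. At an adjusted p under 0.05 there were 0 genes in every one of these except array weights, where Tnni3k was 1 gene. The 692 genes at an unadjusted p under 0.05 became 118 with only genes of a mean of at least 1 FPKM entering the fit, 1282 with array weights, 1146 in the 18 libraries outside the high set, and 617 to 1244 with a mouse left out, the extremes being vehicle replicate 6 and vehicle + amnion epithelial cells replicate 6. The 20 list members became 5 with a mean of at least 1 FPKM, 31 with the library set as a term and 11 to 44 with a mouse left out. With the replicate number as a replicate block there were 1416 genes and 56 list members. Of 36 pairs of mice with the same number, 28 had correlated deviations over 0.1, with a median of 0.352 (0.07 for other numbers) and a lowest value of -0.224, and 7 of 24 mice correlated best with their own number. Since the labels tie the numbers to no litter or day and not every pair was over 0.1, the numbers were not taken to pair the mice.

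For 57 named genes, 1651 of 1914 values kept their sign and side of the threshold, 156 lost and 97 gained an unadjusted p under 0.05, and 10 turned in sign. Rtl8a became -0.10 with array weights, -0.19 with the library set as a term and -0.18 in the 18 libraries, and ran from -0.056 to 0.19 with a mouse left out. Gm9954 ran from -0.052 to 0.30 with a mouse left out. Of 39 named genes at an unadjusted p under 0.05, 35 kept it with the library set as a term, 28 in the 18 libraries, 37 with voom and 26 with each mouse left out. Named genes were mostly chosen for a low p in these same mice, so these counts are no independent support. Under 1 FPKM the median standard error was 0.354 on the log2 scale, so few fragments limit most of the leading genes.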
